A study of Mus musculus with 15 samples.

Results

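The matrix proteases described here are the Mmp, Adam and Adamts genes, with the Timp genes that encode their inhibitors. They were chosen by symbol alone, which gave 79 of the 51826 genes in both TPM tables: 23 Mmp, 4 Timp, 33 Adam and 19 Adamts genes. RNA-seq had been made from aged virgin female mice on an FVB or mixed FVB/129 background. Trim24COE mice carry a single-copy transgene on chromosome 1 in which a floxed stop precedes FLAG-tagged mouse Trim24, and MMTV-Cre, which acts in mammary epithelium, removes the stop. The Trim24COE tumors were 3 metaplastic carcinosarcomas (mice 64, 567 and 897) and 3 carcinomas (89, 273_5 and 3956), and the study's pathologists gave different calls for tumors 89, 567 and 3956. The 4 control mammary glands (133, 392, 417_3 and 517_3) came from mice with MMTV-Cre alone, so the controls carry Cre as well. The 3 non-TRIM24 tumors (219, FVB001 and FVB002) arose spontaneously, and their genotype is labelled unknown. Each mouse is 1 animal, and the 2 repeat libraries, of gland 133 and carcinoma 3956, belong to the second batch together with all 3 non-TRIM24 tumors. The 2 batches follow the TPM tables.

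Matrix metalloproteinases are zinc enzymes that cut collagens, elastin, proteoglycans and other proteins of the space around cells. They are made as inactive precursors and are held in check by the TIMPs, which bind the active site. ADAM proteins sit in the cell membrane, where several of them release growth factors, cytokines and receptors, and ADAMTS proteins are secreted and act on procollagen, on large proteoglycans such as versican and on other matrix proteins. In the mammary gland these enzymes remodel the ducts and the fatty stroma in puberty and involution, and in tumors much of their RNA is known to come from fibroblasts and white blood cells.

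The values are TPM, an RNA level scaled for transcript length that sums to the same total in each library. TPM do not show how many reads lie behind a value, and read counts were not used here, so no counting error is given. Of the 79 genes, 22 did not reach 1 TPM in any of the 15 libraries, and 17 of these were Adam genes, a family with many members known from the testis. The other 57 were 20 Mmp, 4 Timp, 16 Adam and 17 Adamts genes. Trim24 itself had 10.6 to 14.5 TPM in the carcinosarcomas, at or below every control gland (14.5 to 22.4 TPM), and 13.9 to 24.1 TPM in the carcinomas, within or near the range of the glands. In these TPM its level thus did not follow the overexpression in the Trim24COE label, and the groups below are those of the labels. The study itself reported more Trim24 RNA in the Trim24COE tumors than in control glands by qRT-PCR. It also reported overexpressed FLAG and TRIM24 protein in tumor sections by immunohistochemistry. Why the TPM differ from this was not tested. The 2 libraries of gland 133 differed by a median of 0.19 in log2 over 33 members of at least 1 TPM, and those of carcinoma 3956 by 0.25 over 37, and none of these differed by more than 2-fold. Of 7 members at 1 TPM or more in only 1 library of gland 133, 3 differed by more than 2-fold, among them Mmp13 with 1.80 and 0.38 TPM.

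The tumors were first compared with the control glands. Of 45 members tested, 17 differed (6 Trim24COE tumors, 4 control glands, limma on log2(TPM + 1), Benjamini-Hochberg adjusted p under 0.05 over all genes tested). The same threshold was passed by 17.1% of all 15196 genes. Among them, 13 were higher and 4 were lower, against 7.96% of all genes higher and 9.13% lower. The median log2 fold change was 0.66 over the members tested and -0.04 over all genes. By family, 7 of 15 Mmp genes rose and 1 fell, 1 of 4 Timp genes rose and 2 fell, 2 of 11 Adam genes rose, and 3 of 15 Adamts genes rose and 1 fell. The groups did not overlap for 14 of the 45 members, with 11 above and 3 below every gland, and this held for 14.6% of all genes. Of the members that rose, Mmp8, Mmp10 and Adamts16 were at or under 0.28 TPM in every gland. They passed the filter of 1 TPM only through the tumors, where they were high. So did Adamts14, with 1.1 TPM in gland 392 and less than 1 TPM in the other glands. Timp4, which fell, passed it only through the glands, where it was high. It had 3.62 TPM in carcinoma 89 and at most 0.27 TPM in the other tumors. A fold change below is on the log2(TPM + 1) scale, which understates changes of genes near 1 TPM. In bulk tissue, fewer cells of a type and less RNA per cell cannot be told apart.

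**Figure D1:**
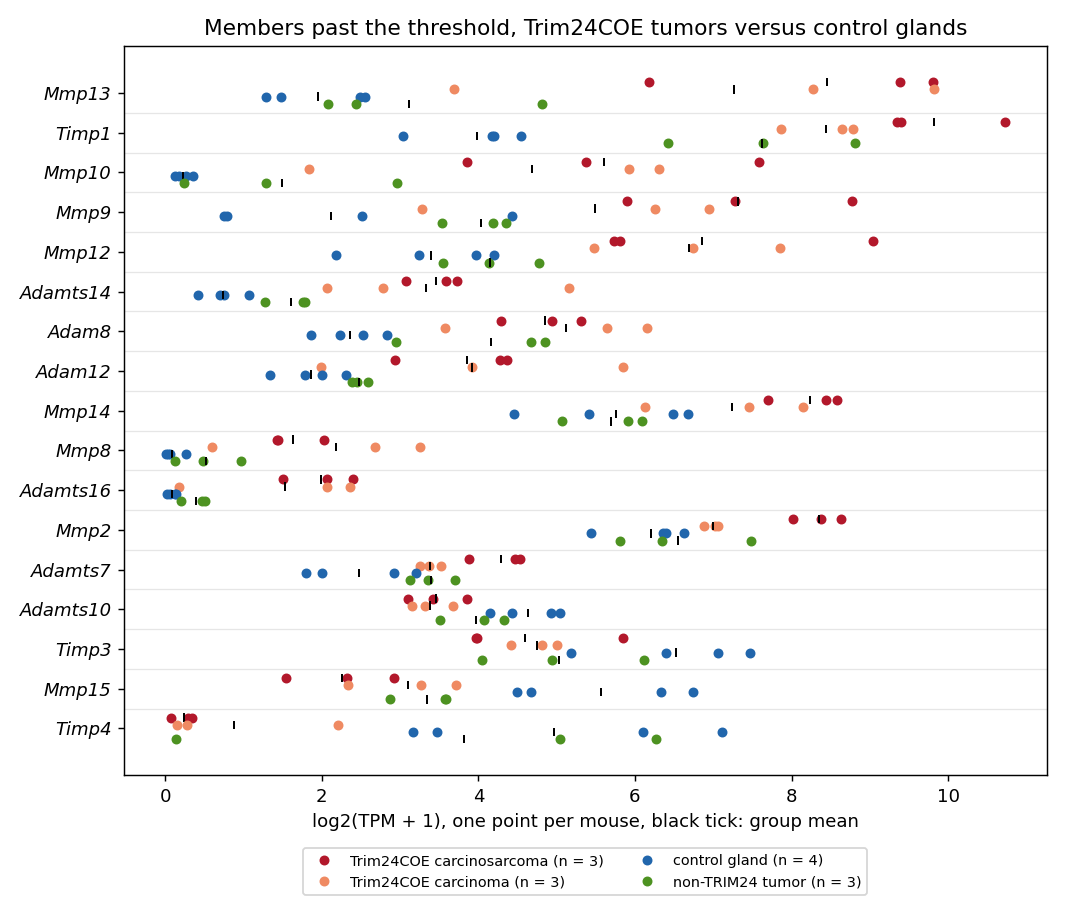
Each point is the log2(TPM + 1) of 1 mouse for the 17 members past the threshold in this comparison, and black ticks are group means. The carcinosarcomas and carcinomas lie right of the control glands for the upper 13 genes, apart from single tumors of Mmp9, Mmp14 and Adam12, and left of them for the lower 4, apart from 1 tumor for Timp3.

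**Figure D2:**
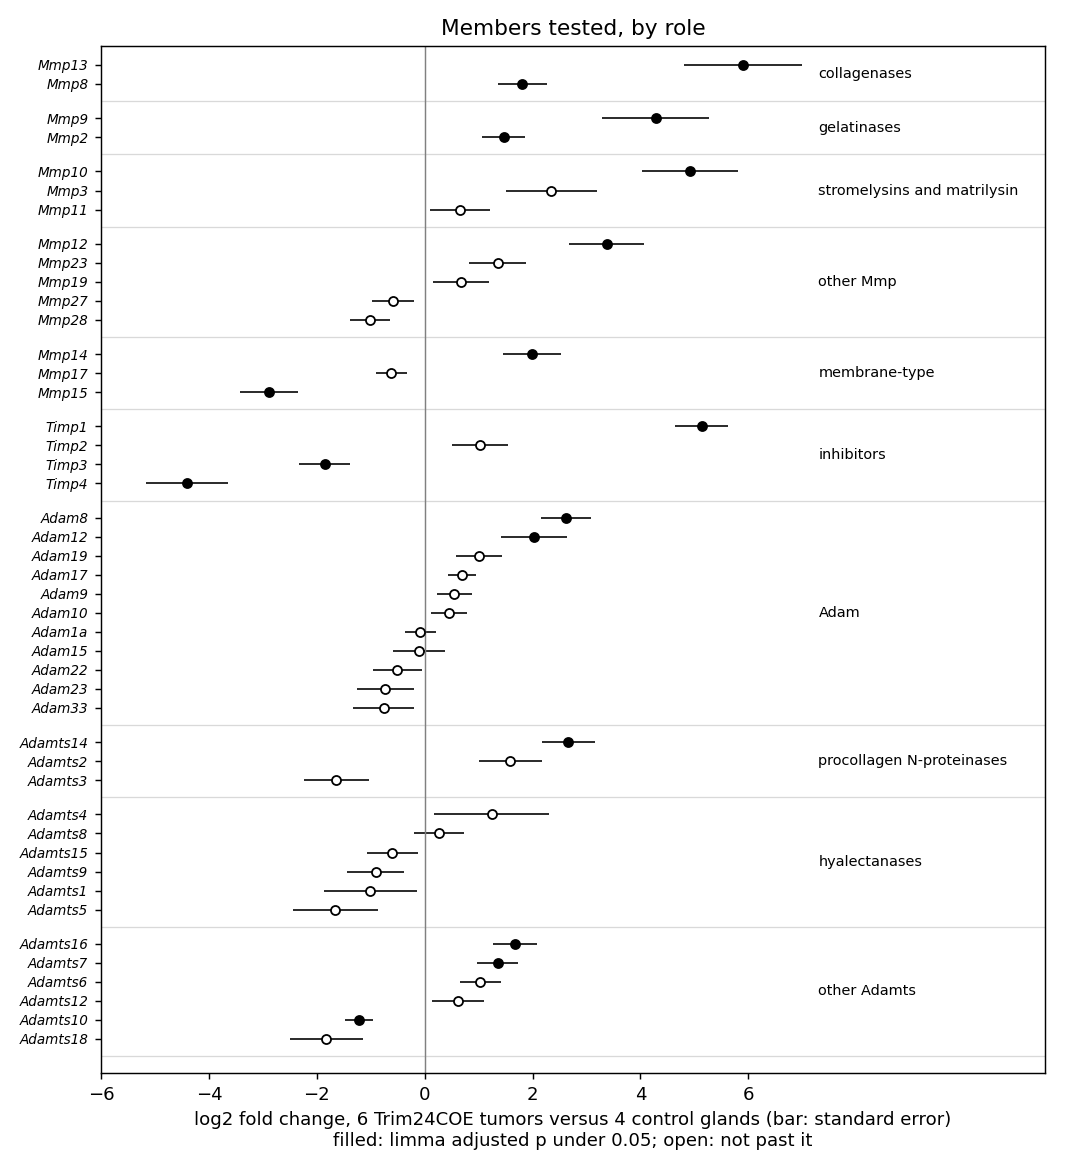
Log2 fold changes with standard errors for the 45 members tested between 6 Trim24COE tumors and 4 control glands, grouped by role, with filled points past the adjusted threshold. Collagenases and gelatinases lie to the right of 0, while inhibitors and membrane-type enzymes have members on both sides.

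Among the inhibitors, Timp1 and Timp4 moved in opposite directions. Timp1, which inhibits most soluble MMPs (ENSMUSG00000001131.11; chromosome X, 20870166 to 20874735, GRCm38), had 7.18, 17.1, 17.4 and 22.3 TPM in the glands. In the tumors its TPM was 233 at the lowest, 543 at the median and 1684 at the highest, the last in carcinosarcoma 64. Every tumor thus lay at least 10 times above every gland. The log2 fold change was 5.14 (SE 0.49, limma adjusted p = 0.000218). Timp4, known for its place in fat and heart (chromosome 6, 115241892 to 115252205), had 67.5, 137, 10.1 and 7.99 TPM in glands 133, 392, 417_3 and 517_3. The tumors had 0.05 TPM at the lowest, 0.22 at the median and 3.62 at the highest, all below every gland. Its log2 fold change was -4.40 (SE 0.76, limma adjusted p = 0.00371). Timp3, a matrix-bound inhibitor that also blocks ADAM17 and the aggrecanases, had 35.4, 82.9, 175 and 132 TPM in the glands and 14.7 to 56.6 TPM in the tumors. It fell by 1.85 on the log2 scale (SE 0.48, limma adjusted p = 0.0229), and 5 of 6 tumors lay below every gland. Timp2, which takes part in the activation of MMP2 on the cell surface, had 54.5 to 125 TPM in the glands and 70.3 to 518 TPM in the tumors, and its log2 fold change was 1.03 (SE 0.52, limma adjusted p = 0.195). Timp1 made up 4.36% to 8.32% of the summed Timp TPM in the glands and 53.0% to 86.7% in the 6 tumors.

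The collagenases and gelatinases tested were higher in the tumors. Mmp13, the main interstitial collagenase of the mouse (ENSMUSG00000050578.10), had 1.80, 1.45, 4.63 and 4.87 TPM in the glands. In the tumors it had 71.2, 895 and 667 TPM in carcinosarcomas 64, 567 and 897 and 308, 11.9 and 898 TPM in carcinomas 89, 273_5 and 3956. All tumors lay above all glands, and carcinoma 273_5 lay far below the other tumors. The log2 fold change was 5.90 (SE 1.09, limma adjusted p = 0.00515). Mmp8, the neutrophil collagenase, was at 0.01 to 0.2 TPM in the glands and 0.51 to 8.58 TPM in the tumors, and its log2 fold change was 1.81 (SE 0.45, limma adjusted p = 0.0199). The other collagenases, Mmp1a and Mmp1b, were listed at 0 in all glands and in all non-TRIM24 tumors and were not tested. Mmp1b reached 2.45 TPM in carcinosarcoma 897 and 1.1 TPM in carcinoma 89, while Mmp1a stayed under 1 TPM everywhere.

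Mmp9, a gelatinase of neutrophils, macrophages and tumor cells (chromosome 2, 164940780 to 164955850), had 4.73, 20.5, 0.68 and 0.73 TPM in glands 133, 392, 417_3 and 517_3. The tumors had 8.71 TPM at the lowest, 98.9 at the median and 437 at the highest, in carcinosarcoma 64. Only carcinoma 273_5 lay within the range of the glands. The log2 fold change was 4.29 (SE 0.99, limma adjusted p = 0.0147). Mmp2, the gelatinase of fibroblasts (chromosome 8, 92827291 to 92853420), had 42.3, 97.4, 83.2 and 81.0 TPM in the glands. The carcinosarcomas had 258, 397 and 332 TPM and the carcinomas 117, 129 and 133 TPM, so that both classes lay above the glands and the carcinosarcomas above the carcinomas. The log2 fold change of the 6 tumors was 1.47 (SE 0.40, limma adjusted p = 0.0292).

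Of the stromelysins, Mmp10 had the clearest difference. It had 0.09, 0.2, 0.13 and 0.28 TPM in the glands, and 13.5, 40.4 and 192 TPM in carcinosarcomas 64, 567 and 897. Carcinomas 89, 273_5 and 3956 had 59.6, 2.58 and 78.1 TPM. The log2 fold change was 4.92 (SE 0.89, limma adjusted p = 0.0047). Mmp3, which cuts many matrix proteins and activates other MMPs, had 40.7, 50, 23.5 and 25.1 TPM in the glands. In 5 of 6 tumors it had 121 to 771 TPM, above every gland, and in carcinoma 273_5 it had 14.9 TPM, below every gland. Over the 6 tumors its log2 fold change of 2.35 did not pass the threshold (SE 0.85, limma adjusted p = 0.0787). Without carcinoma 273_5 it was 3.04 (limma adjusted p = 0.003). Mmp11, a stromelysin of stromal fibroblasts, had 5.18 to 31.2 TPM in the glands and 6 to 33.1 TPM in the tumors (log2 fold change 0.66, SE 0.56, limma adjusted p = 0.438). Matrilysin, Mmp7, was at or under 0.41 TPM in every gland and in 5 tumors and had 9.16 TPM in carcinoma 273_5.

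Mmp12, the elastase of macrophages (ENSMUSG00000049723.14), had 3.52, 8.48, 17.3 and 14.7 TPM in the glands, and 52.0, 524 and 55.0 TPM in carcinosarcomas 64, 567 and 897. Carcinomas 89, 273_5 and 3956 had 105, 43.4 and 230 TPM, so all tumors lay above all glands. The log2 fold change was 3.37 (SE 0.70, limma adjusted p = 0.00883). The membrane-type enzymes did not move together. Mmp14, which activates pro-MMP2 at the cell surface (chromosome 14, 54431612 to 54445364), had 20.9, 41.8, 101 and 88.6 TPM in glands 133, 392, 417_3 and 517_3 and 68.7 to 380 TPM in the tumors, with a median of 244 TPM. It rose by 1.98 on the log2 scale (SE 0.54, limma adjusted p = 0.0283), and 5 of 6 tumors lay above every gland. Mmp15, another membrane-type enzyme (chromosome 8, 95352268 to 95375080), had 21.6, 24.6, 106 and 79.8 TPM in the same glands and 1.91 to 12.1 TPM in the tumors. All 6 tumors lay below every gland, with a log2 fold change of -2.88 (SE 0.54, limma adjusted p = 0.0053). Mmp19 and Mmp23 had log2 fold changes of 0.68 and 1.35 (limma adjusted p = 0.393 and 0.101). Mmp28 had one of -1.02 (limma adjusted p = 0.0811).

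In the Adam family, Adam8 and Adam12 rose. Adam8, a sheddase of white blood cells (chromosome 7, 139978932 to 139992562), had 2.64, 3.72, 6.10 and 4.76 TPM in the glands and 10.9 to 70.2 TPM in the tumors, with a median of 34.1 TPM and no overlap. Its log2 fold change was 2.62 (SE 0.46, limma adjusted p = 0.004). Adam12, which is made by mesenchymal cells (chromosome 7, 133883199 to 134232146), had 3.97, 2.44, 3 and 1.52 TPM in the glands and 2.98 to 56.7 TPM in the tumors. Its log2 fold change was 2.03 (SE 0.61, limma adjusted p = 0.0432), and carcinoma 273_5 again lay within the glands. The 2 main sheddases had smaller differences. Adam17, which releases TNF and EGF receptor ligands, had 12.6 to 26.4 TPM in the glands and 22.6 to 35.9 TPM in the tumors (log2 fold change 0.69, SE 0.26, limma adjusted p = 0.0889). Adam10, the sheddase of Notch and E-cadherin, had a log2 fold change of 0.45 (limma adjusted p = 0.368), Adam9 of 0.55 (0.267) and Adam19 of 1.01 (0.122). Adam15 and Adam33 had -0.10 and -0.76 (limma adjusted p = 0.909 and 0.38).

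Among the Adamts genes, 3 rose and 1 fell. Adamts14, a procollagen N-proteinase (chromosome 10, 61197112 to 61273438), had 0.68, 1.1, 0.62 and 0.34 TPM in the glands and 3.19 to 34.6 TPM in the tumors, with no overlap (log2 fold change 2.66, SE 0.50, limma adjusted p = 0.00541). Adamts2, with the same activity, had 3.03 to 9.78 TPM in the glands and 5.13 to 57.3 TPM in the tumors (log2 fold change 1.59, SE 0.59, limma adjusted p = 0.0838). Adamts16 was at or under 0.1 TPM in the glands and at 0.13 to 4.26 TPM in the tumors (log2 fold change 1.67, SE 0.40, limma adjusted p = 0.0172). Adamts7, known to cut cartilage oligomeric matrix protein, had 2.47 to 8.2 TPM in the glands and 8.52 to 22.2 TPM in the tumors (log2 fold change 1.36, SE 0.38, limma adjusted p = 0.0324). Adamts10, which acts with fibrillin microfibrils, had 16.7, 29.5, 31.8 and 20.6 TPM in the glands and 7.60 to 13.4 TPM in the tumors, without overlap. It fell by 1.22 on the log2 scale (SE 0.26, limma adjusted p = 0.0101). None of the 6 proteoglycan-cleaving members tested passed the threshold (0 of 6 in limma), and their spread over the glands is given below.

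These calls rested on single mice to different degrees. In the 10 fits that each left out 1 mouse, 11 of the 17 members passed every time: Timp1, Timp4, Adam8, Adamts10, Adamts14, Adamts16, Mmp9, Mmp10, Mmp12, Mmp13 and Mmp15. Mmp8 and Timp3 lost the call without gland 417_3 (limma adjusted p = 0.0509 and 0.0675) and without gland 517_3 (0.0504 and 0.0674). Mmp14 and Adamts7 passed in 5 of the 10 fits, Mmp2 in 4 and Adam12 in 2, with limma adjusted p of at most 0.0774, 0.0919, 0.0833 and 0.109 in the rest. Mmp14 lost it without 64, 133, 392, 567 or 3956, Adamts7 without 64, 133, 392, 567 or 897, and Mmp2 without 64, 133, 417_3, 517_3, 567 or 897. Adam12 kept it only without 273_5 or 897.

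Markers of other cells differed between tumors and glands too. The summed TPM of 8 neutrophil markers was 7.28 to 13.8 in the glands and 94.2 to 2053 in the tumors, and that of 8 macrophage markers was 464 to 1144 and 1721 to 6316. For 8 fibroblast markers the sums were 605 to 1509 in the glands, 302 to 2930 in the carcinomas and 2075 to 8005 in the carcinosarcomas. Their part in the results was not tested. The sum of 8 adipocyte markers was 1763 to 38048 in the glands and 121 to 1276 in the tumors. The epithelial sum was 826 to 5892 in the glands, 2543 to 6234 in the carcinomas and 370 to 1423 in the carcinosarcomas. In every list, 0 of the 8 markers was at 0 in all libraries of a group. The adipocyte sums of tumors and glands did not overlap. A fit with an adipocyte score as a covariate therefore cannot cleanly separate the score from the group, and its calls are description only. With this covariate, 10 members passed the threshold, 5 higher and 5 lower, of which 9 were among the 17. Of all genes 8.26% passed in this fit, 2.99% higher and 5.26% lower. Mmp13 then had a log2 fold change of 5.07, Mmp12 of 2.74, Mmp8 of 1.93, Adamts16 of 1.61 and Adam12 of 2.00 (limma adjusted p = 0.0609, 0.0925, 0.0812, 0.0973 and 0.165), each positive as before. It was 1.05 for Mmp2, 0.90 for Mmp14 and 0.62 for Adamts7 (limma adjusted p = 0.218, 0.301 and 0.322). Timp1 (0.00313), Timp4 (0.00831), Mmp15 (0.0149), Timp3 (0.0376), Adam8 (0.0438), Mmp10 (0.0443), Mmp9 (0.0445), Adamts14 (0.0467) and Adamts10 (0.0474) still passed.

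The 10 Mmp genes of chromosome 9 lie side by side, from 7272514 to 7699585 (GRCm38, GENCODE M21), in the order Mmp13, Mmp12, Mmp1b, Mmp3, Mmp1a, Mmp10, Mmp8, Mmp27, Mmp20 and Mmp7, with Mmp1b on the minus strand and overlapping the end of Mmp12. They include 4 of the 13 members that rose. AP-1, a dimer of Fos and Jun proteins, is a textbook activator of several of these promoters through the letters TGANTCA. Promoter windows of 300 bases, 250 before and 50 after the start (RefSeq, GRCm38.p6), were at hand for 49 of the 79 members and all 10 of the cluster. TGANTCA was found in 8 of the 10, counting a gene with several windows once, and in 5 of the 39 members outside the cluster, against 7.81% of all 32851 windows. TATAAA on either strand was found in 9 of the 10 and 5 of the 39, against 13.6% of all windows. Promoters are shown for the 4 cluster genes that rose and for Mmp3, from 100 bases before the start to 20 bases from it, all on the plus strand of chromosome 9. Capitals mark TGANTCA and TATAAA, the latter on either strand, and the 2 motifs do not overlap here.
Mmp13, chr9:7272414-7272533: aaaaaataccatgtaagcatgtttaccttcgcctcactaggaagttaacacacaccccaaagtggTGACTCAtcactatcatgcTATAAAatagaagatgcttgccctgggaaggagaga
Mmp12, chr9:7347274-7347393: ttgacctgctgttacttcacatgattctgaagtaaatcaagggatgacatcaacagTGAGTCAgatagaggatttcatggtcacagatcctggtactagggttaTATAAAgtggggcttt
Mmp3, chr9:7445722-7445841: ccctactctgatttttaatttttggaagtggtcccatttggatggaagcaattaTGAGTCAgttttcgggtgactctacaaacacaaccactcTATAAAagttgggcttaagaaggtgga
Mmp10, chr9:7502242-7502361: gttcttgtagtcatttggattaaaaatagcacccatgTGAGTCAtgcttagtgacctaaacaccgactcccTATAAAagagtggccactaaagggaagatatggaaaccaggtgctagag
Mmp8, chr9:7558329-7558448: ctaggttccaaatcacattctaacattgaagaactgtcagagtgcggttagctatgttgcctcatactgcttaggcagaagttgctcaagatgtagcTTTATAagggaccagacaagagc
TGANTCA begins 35 bases before the start in Mmp13, 44 in Mmp12, 46 in Mmp3 and 63 in Mmp10. It was not found in the windows of Mmp8 and Mmp27. For Mmp12 the second of its windows is shown, and the first holds neither motif. A match is a run of letters, and binding was not measured.

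Carcinosarcoma 897 stood apart at this locus. It had the highest value of the 6 tumors for 4 of the 10 cluster genes: Mmp3 with 771 TPM against at most 350 TPM, Mmp10 with 192 against at most 78.1, Mmp1b with 2.45 against at most 1.1, and Mmp20 with 0.05 against at most 0.01, both far under 1 TPM. For Mmp12, Mmp8 and Mmp27 it had 55.0, 1.72 and 0.62 TPM, within the range of the other tumors. The genes on both sides of the cluster were far higher in 897. Dcun1d5, the nearest gene on the side of Mmp13, had 3679 TPM in 897 and 83 to 135 TPM in the other 5 tumors. Dync2h1, next to it, had 40.6 TPM against 0.61 to 1.81. On the side of Mmp7, Yap1, a coactivator of the Hippo pathway, had 1011 TPM against 33.2 to 53.1 TPM, and the apoptosis inhibitors Birc2 and Birc3 had 113 and 323 TPM against at most 18.4 and 33.0. Of 13 genes tested within 1500 kb of the cluster, 9 were at least 2 times higher in 897 than in every other Trim24COE tumor. Over all 15196 genes the share was 0.836%. The flanking Pdgfd and Trpc6 were not among them. These neighbours were picked because of their values. The DNA of this tumor was not analysed here, and the part of this stretch in the Mmp values of 897 was not tested. Without 897 the log2 fold changes between tumors and glands were 5.60 for Mmp13, 4.43 for Mmp10, 3.57 for Mmp12 and 1.90 for Mmp8 (limma adjusted p = 0.0127, 0.0077, 0.0128 and 0.0286). That of Mmp3 was 1.92 (limma adjusted p = 0.133).

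**Figure D3:**
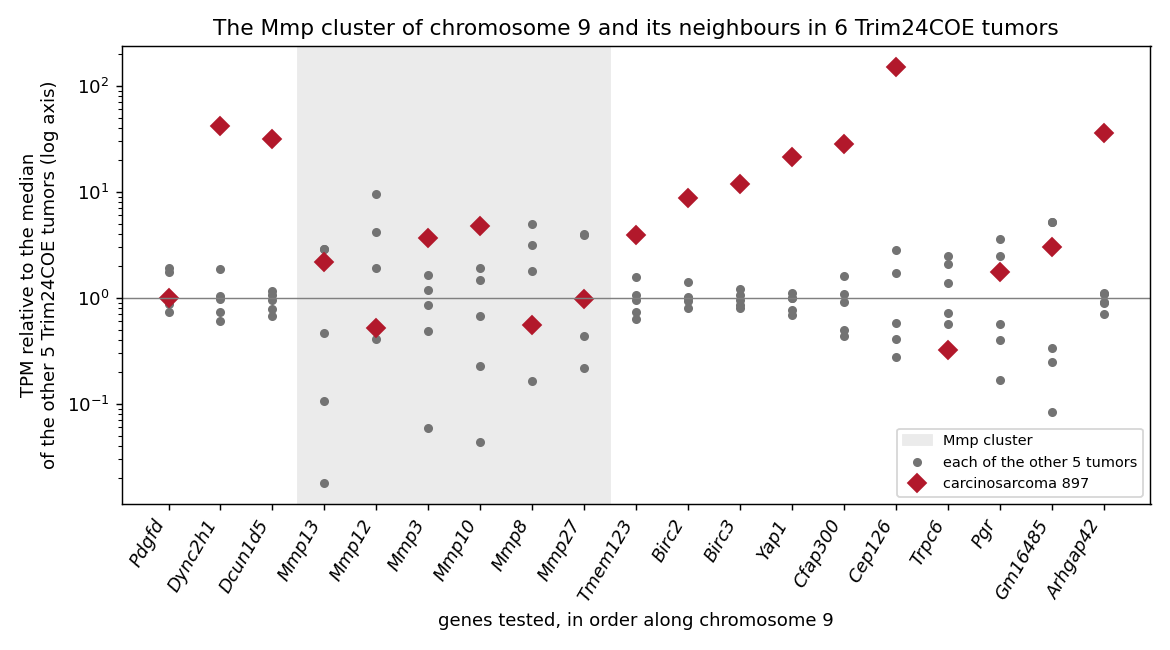
For each gene tested at the chromosome 9 locus, in gene order, the TPM of each Trim24COE tumor is divided by the median of the other 5 tumors (log axis), with the Mmp cluster shaded. Carcinosarcoma 897 lies above all other tumors for Dync2h1, Dcun1d5 and the genes from Tmem123 to Cep126 and Arhgap42, but only for Mmp3 and Mmp10 among the cluster genes tested.

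Carcinoma 273_5 was the lowest tumor for 10 of the 13 members that rose. Among these, it lay within the range of the glands for Mmp9, Mmp14 and Adam12. It lay above every gland for 10 of the 13, a partly different set. The shares over all genes that rose were not computed, so both counts are description only. It also had the lowest fibroblast sum of the tumors, 302 TPM, and an adipocyte sum of 628 TPM.

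The control glands fell into pairs for several members. Adamts1, a protease that cuts versican and aggrecan and is needed in ovary and kidney (chromosome 16, 85793827 to 85803113), had 11.4 and 5.72 TPM in glands 133 and 392 and 194 and 130 TPM in glands 417_3 and 517_3. Adamts4, an aggrecanase (chromosome 1, 171250421 to 171260637), had 1.41 and 0.69 TPM in the first pair and 94.7 and 69.0 TPM in the second. Adamts5, the neighbour of Adamts1 on chromosome 16 and the other main aggrecanase, ran the other way, with 43.1 and 62.9 TPM in the first pair and 3.68 and 2.75 TPM in the second. The adipocyte sums were 25493 and 38048 TPM in glands 133 and 392 and 1763 and 1953 TPM in glands 417_3 and 517_3. The epithelial sums were 826 and 1461 TPM against 5583 and 5892 TPM. The tumors had 9.55 to 31.5 TPM of Adamts1, 19.3 to 51.4 TPM of Adamts4 and 1.42 to 8.70 TPM of Adamts5. Over all 4 glands the log2 fold changes were -1.01, 1.24 and -1.66 (limma adjusted p = 0.449, 0.452 and 0.167). The direction turned with the glands used, in fits added with these values in view. Against glands 133 and 392 alone 16 members passed, 10 higher and 6 lower in the tumors, and against glands 417_3 and 517_3 alone 16 passed, 6 higher and 10 lower. Of all genes 19.3% passed against the first pair, 9.29% higher and 10% lower, and 16.2% against the second, 4.61% higher and 11.6% lower, so the balance of all genes moved the same way. The pairs were set apart by the values of such members, so the directions of Adamts1, Adamts4 and Adamts5 followed from that choice. Against glands 133 and 392 alone, the log2 fold change of the tumors was 3.91 for Adamts4 and -3.49 for Adamts5. Against glands 417_3 and 517_3 alone, it was -1.43 for Adamts4, -3.07 for Adamts1, -2.08 for Adamts9 and 0.17 for Adamts5. Each fit holds 2 glands chosen with the values in view, so the adjusted p-values below are description only. Timp4 and Mmp15 were lower in the tumors against either pair (limma adjusted p = 0.000748 and 0.0357 against the first, 0.01 and 0.00195 against the second). Mmp9 passed against the second pair but not the first (limma adjusted p = 0.011 and 0.117), as did Timp3 (0.00767 and 0.168). Adam12, Adamts16, Mmp2 and Mmp8 passed against neither pair (limma adjusted p of 0.0660 to 0.158), with 2 glands in each fit. Mmp12, Mmp14 and Adamts7 passed against the first pair (limma adjusted p = 0.0165, 0.0142 and 0.0133) but not the second (0.0685, 0.194 and 0.222).

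**Figure D4:**
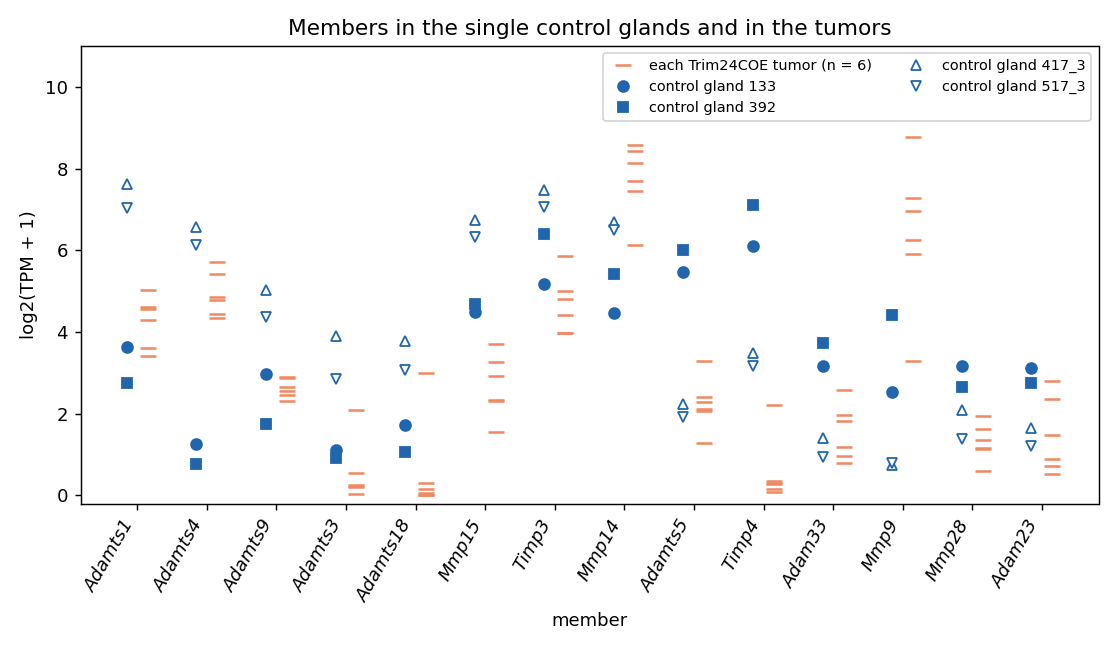
Values as log2(TPM + 1) in each control gland (blue symbols, filled for 133 and 392, open for 417_3 and 517_3) and in each of the 6 Trim24COE tumors (bars) for 14 members. Adamts1, Adamts4, Adamts9, Adamts3, Adamts18, Mmp15, Timp3 and Mmp14 are higher in the open pair. Adamts5, Timp4, Adam33, Mmp9, Mmp28 and Adam23 are higher in the filled pair.

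The carcinosarcomas were then compared with the carcinomas. No member passed the threshold (0 of 39 in limma), against 0.698% of 14193 genes, and 7 had an unadjusted p under 0.05, against 15% of all genes. The median log2 fold change was 0.17 over the members and -0.10 over all genes. The classes did not overlap for 9 of the 39 members, the 7 included, against 21.8% of all genes. Mmp2 had 258 to 397 TPM in the carcinosarcomas and 117 to 133 TPM in the carcinomas (log2 fold change 1.35, SE 0.24, limma adjusted p = 0.0742). Timp2 had 243, 518 and 336 TPM in carcinosarcomas 64, 567 and 897 and 94.3, 70.3 and 150 TPM in carcinomas 89, 273_5 and 3956 (log2 fold change 1.79, SE 0.39, limma adjusted p = 0.134). The rest of the 7 were Timp1, Mmp3, Adamts7 and Adam15, with log2 fold changes of 1.39, 2.45, 0.92 and 1.23 (limma adjusted p = 0.242, 0.302, 0.225 and 0.257), and Adam33 with -1.13 (0.211). Both counts lay near the shares of all genes, so none of the 7 is called different between the classes. Mmp13, Mmp12 and Mmp9 overlapped between the classes. No member passed in the 10 alternative fits (limma), with 5 to 11 at an unadjusted p under 0.05. In 3 of those fits no gene at all passed, and in the others 14 to 293 genes did, so the count of 0 says little about stability.

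Each class was also set against the same 4 glands, so these results share their controls. For the carcinosarcomas, 19 of 44 members passed the threshold, 15 higher and 4 lower, against 23% of 15287 genes, with 9.83% of genes higher and 13.1% lower. Of these, Mmp8, Mmp10, Adamts14 and Adamts16, at most 1.1 TPM in every gland, passed the filter only through the carcinosarcomas, where they were high. Timp4 and Adamts18, at most 0.27 TPM in the carcinosarcomas, passed it only through the glands, where they were high. The median log2 fold change was 0.64 over the members and -0.12 over all genes. For the carcinomas, 2 of 43 members passed, both higher, against 3.5% of 15479 genes, with medians of 0.13 and 0.02. Those were Timp1, with 233, 400 and 439 TPM (log2 fold change 4.44, SE 0.41, limma adjusted p = 0.0074), and Mmp12 (3.29, SE 0.66, limma adjusted p = 0.0388). Mmp12 lost this call without any 1 of carcinomas 89 and 3956 and glands 133, 392, 417_3 and 517_3 (limma adjusted p of up to 0.116), and 7 members passed without carcinoma 273_5, all higher, against 1.57% of all genes in that fit. For the carcinosarcomas, Timp1 had a log2 fold change of 5.83 (SE 0.46, limma adjusted p = 0.000641), Mmp13 of 6.50 (SE 0.84, 0.00232), Mmp3 of 3.58 (SE 0.44, 0.00206) and Timp2 of 1.93 (SE 0.37, 0.00967). Mmp3 and Timp2 passed here in each fit without 1 mouse. Adamts18, at 0 to 0.11 TPM in the carcinosarcomas and 1.07 to 12.8 TPM in the glands, fell by 2.34 (SE 0.62, limma adjusted p = 0.0305). Without any 1 of carcinosarcomas 64, 567 and 897 and gland 517_3 its limma adjusted p was 0.112, 0.0953, 0.0871 and 0.0644.

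Last, the non-TRIM24 tumors were compared with the control glands over all 15 libraries, with batch as a term, for which only mice 133 and 3956 carry information. The repeat libraries enter as libraries of their own. The filter of 1 TPM counted all 15 libraries, so a member could enter through the Trim24COE tumors alone. Adamts16 did so, with 0.15 to 0.43 TPM in the non-TRIM24 tumors and at most 0.1 TPM in the glands. So did Mmp8 and Adamts6, with at most 0.96 and 0.46 TPM in the non-TRIM24 tumors and at most 0.2 and 0.55 TPM in the glands. No member passed the threshold (0 of 49 in limma), against 0.107% of 16775 genes, and 4 had an unadjusted p under 0.05, against 10.7% of all genes. Timp1 had 447, 85.0 and 198 TPM in tumors 219, FVB001 and FVB002, above every gland (log2 fold change 3.74, SE 0.71, limma adjusted p = 0.0876). Its limma adjusted p was 0.0145 without tumor FVB001 and 0.0133 with the libraries of 1 mouse linked by duplicateCorrelation. Mmp23, an unusual MMP anchored in the membrane, had 25.3, 57.0 and 37.8 TPM, against 3.81 to 16.3 TPM in the glands (log2 fold change 2.66, SE 0.73, limma adjusted p = 0.282). Adam8 and Adamts7 had log2 fold changes of 1.73 and 0.98 (limma adjusted p = 0.468 and 0.452). Mmp13 had 27.1, 3.23 and 4.41 TPM in these tumors and Mmp10 6.78, 0.18 and 1.44 TPM, with the highest value of both in tumor 219. The adipocyte sum was 179 TPM in tumor 219 and 27602 and 54243 TPM in FVB002 and FVB001, and Timp4 had 0.1, 32.1 and 76.2 TPM in that order. Without the batch term 4 members passed: Timp1, Adam8 and Mmp23 higher and Mmp15 lower, of 49 tested, against 11.1% of all genes.

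Summed over each family, the Mmp genes had 176 to 362 TPM in the glands and 317 to 2762 TPM in the Trim24COE tumors, with the lowest tumor, 273_5, among the glands. The Timp sum was 165 to 331 TPM in the glands and 362 to 1942 TPM in the tumors, so it did not overlap. The ratio of both sums was 0.946 to 1.18 in the glands and 0.647 to 3.15 in the tumors, which lay on both sides of the glands. Carcinosarcoma 64 had the highest Timp sum and a ratio of 0.756. The non-TRIM24 tumors 219, FVB001 and FVB002 had Timp sums of 543, 422 and 372 TPM, also above every gland.

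**Figure D5:**
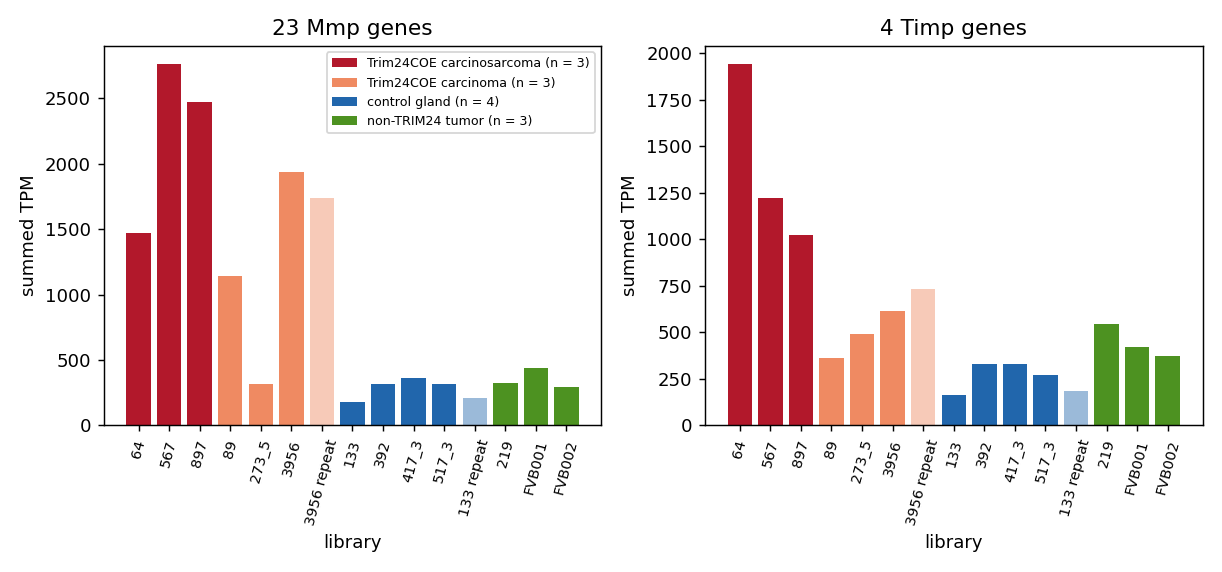
Summed TPM of the 23 Mmp genes (left) and the 4 Timp genes (right) in each of the 15 libraries, with repeat libraries in a lighter shade. In 5 of 6 Trim24COE tumors the Mmp sum lies above every control gland and every non-TRIM24 tumor. The Timp sum lies above every control gland in all 6 and in every non-TRIM24 tumor as well.

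Other genes of matrix breakdown were taken from lists chosen with earlier results of these data known, so their counts are description only. Of all genes tested between tumors and glands, 7.96% rose and 9.13% fell. Of 5 plasminogen activation genes tested between tumors and glands, 2 rose and 0 fell, with a median log2 fold change of 2.28: Serpine2, a serine protease inhibitor, by 3.07 (limma adjusted p = 0.0047), and Plat, tissue plasminogen activator, by 2.13 (0.022). Of 11 cathepsins and cystatins, 7 rose and 0 fell, with a median of 1.11, among them the lysosomal proteases Ctss by 2.89 (limma adjusted p = 0.000271) and Ctsc by 2.18 (0.000515). Of 14 regulators, 2 rose and 3 fell, with a median of 0.27. Reck, a membrane-anchored inhibitor of several MMPs, fell from 4.23 to 11.4 TPM in the glands to 0.82 to 3.27 TPM in the tumors (log2 fold change -1.56, limma adjusted p = 0.00899), and Spock2 and Papln fell as well. Bsg, an inducer of MMPs, rose by 0.64 (limma adjusted p = 0.041), and Tfpi2, a serine protease inhibitor of the matrix, by 3.09 (0.0147). Of 4 astacin proteases and enhancers, 2 rose and 0 fell, with a median of 1.75: Bmp1, the procollagen C-proteinase, by 2.78 (limma adjusted p = 0.00194), and its enhancer Pcolce by 2.00 (0.046). Of 2 hyalectans, Vcan, the proteoglycan versican, rose by 3.43 (limma adjusted p = 0.00297), and Acan, aggrecan, had 1.74 (0.0706). The median of all genes was -0.04.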

How the data were processed

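RNA-seq values of 15 libraries of 13 mice were read from 2 deposited tables. According to their methods, the authors aligned reads to GRCm38 with STAR and estimated TPM per gene with RSEM, and the submitters' processing notes name mm10, FastQC, TopHat, Cufflinks, RSEM, DESeq and edgeR. RNA and library kits differ between labels and methods. TPM sum to the same total in each library and do not show depth. Read counts were not used here, and reads shared by near-identical copies or by overlapping genes cannot be traced.

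Members were matched by symbol, and coordinates were taken from GENCODE M21 by gene ID (79 of 79). A gene entered when it had at least 1 TPM in a number of libraries equal to the mice of the smaller group, and was tested with limma 3.58.1 in R 4.3.3 (lmFit, eBayes with trend) on log2(TPM + 1), two-sided, with Benjamini-Hochberg adjustment over all genes tested and a threshold of 0.05. Each fit held the groups compared and the first library of each mouse. The comparison of non-TRIM24 tumors used all 15 libraries with batch, and its filter counted all 15 libraries too. Scripts were tested on simulated data.

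Named were a set list of Mmp, Timp, Adam and Adamts genes, every other member past the threshold between tumors and glands or between classes, and up to 5 further members in each direction elsewhere. Mmp1a, Mmp1b, Mmp20, Mmp27, Mmp28, Adam23, Adamts3, Adamts19 and the neighbours of the chromosome 9 cluster fall outside this rule and were named after their values were seen. The members, lists and this rule were chosen with earlier results of these data known. Alternatives changed the pseudocount (0.1 TPM), filter, scaling, groups in the fit, batch term, an adipocyte covariate, the glands used and each mouse. Sequences are from RefSeq. No protein sequences were used here.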

Additional observations from a re-analysis of the deposited data

Results flagged for a closer look

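In 72 sets of values (36 members in 6 tumors and in 4 glands, on the log2(TPM + 1) scale), 3 had 1 mouse far from the others by Dixon's gap. Chance alone gives about 1 in 20. Mmp7 had 9.16 TPM in carcinoma 273_5 and 0 to 0.41 TPM in the other 5 tumors. Timp4 had 3.62 TPM in carcinoma 89 and 0.05 to 0.27 TPM in the other 5. Mmp8 had 0.2 TPM in gland 133 and 0.01 to 0.04 TPM in the other glands, all far under 1 TPM. For none of the 36 members did all carcinosarcomas lie beyond every gland on one side and all carcinomas beyond every gland on the other.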

How the results depend on the processing

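Between Trim24COE tumors and control glands, 17 members passed the threshold, and the number was 11 with no filter on low values (7 higher, 4 lower, against 4.76% of all 39693 genes), 10 with the adipocyte covariate and 13 to 21 without 1 mouse. The pseudocount, quantile scaling and 1 fit over batch 1 gave 18, 20 and 19, against 16.8%, 18.3% and 20.4% of all genes. In the main fit 17.1% of all genes passed, with the adipocyte covariate 8.26%, and without 1 mouse 11.3% to 19.6%. With no filter Adam12, Adamts16, Adamts7, Mmp14, Mmp2, Mmp8 and Timp3 lost the call, with limma adjusted p of 0.0600 to 0.101, and Adamts19 gained it. Between carcinosarcomas and glands it was 19, and 13 with no filter, 17 in 1 fit over batch 1, 26 with the adipocyte covariate (17 higher, 9 lower, against 32.7% of all genes) and 13 to 20 without 1 mouse. Of all genes 23% passed in the main fit, 4.15% with no filter and 22.4% in 1 fit over batch 1. Without 1 mouse, from 1345 of 16525 to 3093 of 14784 genes passed. Between carcinomas and glands it was 2, and 4 with a pseudocount of 0.1 TPM, 1 with no filter, 5 with quantile scaling, 9 in 1 fit over batch 1, 4 with the adipocyte covariate and 1 to 7 without 1 mouse. Of all 15479 genes, 542 passed in the main fit, and 578, 642, 1239 and 836 with the pseudocount, quantile scaling, 1 fit and the covariate. With no filter, 46 of 38798 genes passed. Without 1 mouse, from 72 of 15143 to 526 of 15003 genes did. For the non-TRIM24 tumors it was 0, and 4 with no batch term, 1 with duplicateCorrelation and 0 to 1 without 1 mouse. Of all 16775 genes, 18 passed in the main fit, 1862 with no batch term and 119 with duplicateCorrelation. Without 1 mouse, from 7 of 16594 to 95 of 17820 genes did. Between the classes it was 0 throughout.

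None of the 17 members past the threshold between tumors and glands changed sign under these alternatives. Among the others named, the sign turned with the adipocyte covariate for Adam10 (-0.074), Adam15 (0.31), Adam33 (0.68), Adam9 (-0.061), Adamts4 (-1.40) and Adamts5 (0.39). With glands 417_3 and 517_3 only, a choice made with the data in view, it turned for Adam10 (-0.11), Adam15 (0.56), Adam33 (0.37), Adamts4 (-1.43) and Adamts5 (0.17), and with glands 133 and 392 only for Adamts1 (1.06), Adamts9 (0.26) and Mmp11 (-0.049). That of Adam15 also turned without carcinoma 273_5 (0.19) and without gland 392 (0.28), within a range of -0.34 to 0.28 over the fits without 1 mouse. The cause was not tested. No paired analysis was possible because replicate numbers are mouse names that the groups do not share. TPM keep no depth, and read counts were not used here, so the counting error of low values is not given.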
